A study of Mus musculus with 9 samples.

Results

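In 9 mouse oral tumors, the signal of keratin-associated protein genes (Krtap) differed widely between tumors of the same genotype, and the 3 tumors lowest in that signal were set against the other 6. In each of the 3 genotypes, the tumor with the lowest mean log2 signal over the 45 probe sets whose gene symbol begins with Krtap was taken as the hair-gene-low tumor. These were p53-/- tumor 2, p53R172H/- tumor 1 and p53R172H/+ tumor 2. The Krtap values therefore chose the groups and are given as a description. For every other gene, the comparison says only whether its level went with the Krtap signal in these 9 tumors, and it is not a test of a labelled condition.

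Each tumor was hybridised to 1 Affymetrix array, and values are signal intensities in MAS5 units. Per the series' title, the tumors arose with activated Ras and altered p53. Per the sample titles, the p53-/- tumors had loss of p53. The p53R172H/- tumors had the p53R172H missense allele with no second allele of the gene. The p53R172H/+ tumors had it beside a wild-type allele, and each genotype had 3 tumors. The tissue was labelled oral tumor and the age 1 year for all of them, so there is no normal tissue among the samples. The source names carry a prefix K- that the labels do not explain, and neither the way Ras was activated nor the driver of any transgene is given there. The labels do not state whether each tumor is from its own mouse, and p-values rest only on how much these samples vary, which may be technical. Basal and suprabasal keratins of stratified epithelium were bright on every array. The basal keratin Krt5 ranged from 10434 to 13213 signal units, its partner Krt14 from 19908 to 22692, and Krt13 of oral mucosa from 9692 to 19417. Krt4, the other oral mucosa keratin, ranged from 472 to 13502, and the hair-gene-low tumors, at 5904, 1173 and 4204, lay inside that range. Array medians were 109 to 123 signal units.

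A hair shaft is built from hair keratins, which form filaments, and from keratin-associated proteins, small proteins rich in cysteine or in glycine and tyrosine that crosslink those filaments. Both are made late, in the cortex and cuticle of a growing follicle, while the inner root sheath has its own keratins and trichohyalin. Sebaceous glands open into the follicle, and the dermal papilla and dermal sheath are its stroma. Hair-type keratins are also made in the papillae of the tongue, and follicles are not a usual part of oral mucosa. In a bulk sample, fewer cells of a type and less RNA per cell cannot be told apart.

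The stretches below are the 120 bases before the annotated start of 6 genes, from RefSeq on GRCm38.p6, written 5′ to 3′ on the gene's strand, and capitals mark TATAAA, the TATA box sequence. They are shown because the first 4 belong to the hair gene family itself or lie beside it, and the last 2 to genes outside it with a small adjusted p.
Krtap9-3: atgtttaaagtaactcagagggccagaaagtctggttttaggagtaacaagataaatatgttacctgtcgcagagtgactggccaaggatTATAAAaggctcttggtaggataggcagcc
Krt25: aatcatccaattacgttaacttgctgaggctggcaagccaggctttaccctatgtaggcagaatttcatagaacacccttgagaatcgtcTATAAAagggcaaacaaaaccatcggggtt
Krt34: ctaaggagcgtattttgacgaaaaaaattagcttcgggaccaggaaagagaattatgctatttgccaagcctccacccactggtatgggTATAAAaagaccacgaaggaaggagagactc
Gm11559: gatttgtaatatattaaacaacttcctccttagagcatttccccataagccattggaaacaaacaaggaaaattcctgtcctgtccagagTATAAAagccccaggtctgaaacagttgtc
Coch: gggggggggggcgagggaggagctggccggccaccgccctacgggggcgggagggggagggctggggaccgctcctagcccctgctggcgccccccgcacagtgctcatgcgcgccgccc
Cxcl12: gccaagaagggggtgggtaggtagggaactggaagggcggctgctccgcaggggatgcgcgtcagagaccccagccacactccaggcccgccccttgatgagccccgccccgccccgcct
They lie at chr11:99598107-99598226 on the minus strand for Krtap9-3, chr11:99322952-99323071 on the minus strand for the root sheath keratin gene Krt25, and chr11:100041555-100041674 on the minus strand for the cortex keratin gene Krt34. The stretch of Gm11559 is chr11:99864356-99864475, that of Coch chr12:51593221-51593340 and that of Cxcl12 chr6:117168415-117168534, all on the plus strand. In the first 3 genes and Gm11559 the box begins 30 or 31 bases before the start. Over the 250 bases before the start, TATAAA on either strand (TATAAA or TTTATA) was present in 41 of 51 Krtap genes (80.4%) and 12 of the 15 hair keratin genes with a sequence (80.0%). It was present in 14.3% of all 27025 genes of the table and in 8.70% of the tested genes with a sequence. Of genes lower in the hair-gene-low tumors that were neither on the hair lists nor beside Krtap genes, 8 of 33 with a sequence had it (24.2%), and of the higher genes 3 of 14 (21.4%). A match of letters is a description and not a site.

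The Krtap mean was 7.36 in p53-/- tumor 2 against 8.59 and 8.12 in the other p53-/- tumors, on the log2 signal scale. It was 6.14 in p53R172H/- tumor 1 against 9.53 and 8.40, and 5.92 in p53R172H/+ tumor 2 against 7.29 and 7.81. The low p53-/- tumor thus lay above p53R172H/+ tumor 1, which counts among the other 6, so the low tumors are low within their genotype and not across the series. The gap to the mean of the other tumors was -0.99, or 1.99-fold, in p53-/- tumors, 7.10-fold in p53R172H/- tumors and 3.09-fold in p53R172H/+ tumors. Of the 45 probe sets, 35 were below both other tumors in all 3 genotypes. The same 3 tumors are chosen by the median of the probe sets or by the mean of the hair keratins.

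Single hair genes mostly followed the same order within genotypes. Krtap9-3 had signals of 350, 81.8 and 54.2 in the low p53-/-, p53R172H/- and p53R172H/+ tumors, and 361, 910 and 2579 as the lowest, median and highest of the others. The low tumors were all below the others, the p53-/- one by a narrow margin. Krtap8-1, a glycine- and tyrosine-rich member, had 1240, 223 and 159 against 928, 2290 and 5739, so there the groups overlapped. The cortex keratin Krt34 had 348, 104 and 78.3 against 453, 993 and 2560, and Krt33a had 351, 157 and 85.0 against 598, 1084 and 2843. The inner root sheath keratin Krt25 had 792, 291 and 271 against 1063, 1992 and 4097. Its relative Krt71 had 1669, 1624 and 1989 against 1879, 2378 and 2621, and its groups overlapped. For Krt71 the low p53R172H/+ tumor, at 1989, was above p53R172H/+ tumor 1, at 1879. Over the 19 hair keratins that passed the filter on low signal, the median log2 difference was -1.61, and 16 were below both other tumors in every genotype.

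Not every gene listed for follicle structure had this order. Trichohyalin (Tchh), which fills the inner root sheath and medulla, had 985, 1194 and 444 against 1223, 2198 and 3754, with no overlap. Prr9 had 930, 470 and 431 against 1378, 1775 and 3547. The transglutaminase Tgm3 and the metallothionein Mt4, also made in other differentiating squamous epithelium, overlapped between groups, with log2 differences of -0.03 and -0.02. Of the 17 genes of that list, 8 were below both other tumors in every genotype and 1 was above. The median was -0.35.

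Outside the Krtap genes, 12143 genes were fitted with the genotype as a block, and 84 (0.692%) had an adjusted p under 0.05 in limma's moderated test. Of these, 65 were lower in the hair-gene-low tumors (0.535% of the genes) and 19 higher (0.156%). The lower ones held 14 genes of the hair keratin and follicle structure lists, 3 predicted genes with 2 Krtap genes among their 4 nearest protein-coding neighbours, and 48 others. All 65 were below and all 19 above both other tumors in each genotype, as were 6.44% and 3.90% of all tested genes. The median difference over all tested genes was -0.01. At an unadjusted p under 0.05, 750 genes were lower and 392 higher. For genotype, 0 genes were called beside this term (smallest adjusted p 0.22, with 1508 at an unadjusted p under 0.05). All 3 low tumors were below all 6 others in 2.51% of the tested genes and above them in 1.22%. The count of calls depended on which tumor was left out. It was 68, 62 and 32 without p53-/- tumor 1, 2 or 3, and 16, 51 and 44 without p53R172H/- tumor 1, 2 or 3. It was 108, 43 and 27 without p53R172H/+ tumor 1, 2 or 3. Of the 43 called genes named here, 9 were called each time. These 9 include Gm11559 and Gm11567, predicted genes beside Krtap genes that may measure what chose the tumors. Of the 43, 14 were called in at most 3 of the 9 fits. Phf11d was called in 0 of them, and Klhdc8a and H2-Ab1 in 1. Pbp2, Cxcl1, Alox12, Bambi, C1qa, Ccr2, C1qc and Egr3 were called in 2, and Cdo1, Krt79 and Mmp3 in 3.

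Skeletal muscle genes varied widely between the tumors, and none was called. The mean log2 signal of 20 skeletal muscle genes was 7.66, 6.70 and 6.505 in the low p53-/-, p53R172H/- and p53R172H/+ tumors and 7.34 to 10.17 in the others. The low tumors differed from the mean of their genotype's others by -0.27, -3.02 and -1.27, in that order of genotypes. The fast light chain Myl1 had 164, 57.0 and 46.2 signal units against a lowest of 200, a median of 540 and a highest of 3426 (log2 difference -3.06 ± 0.67 SE, adjusted p = 0.11). The skeletal actin Acta1 had 536, 273 and 149 against 536, 1494 and 7605, and its groups overlapped by less than 1 signal unit (-2.65 ± 0.59 SE, adjusted p = 0.112). In p53-/- tumors the list mean of tumor 1, at 7.69, was level with that of the low tumor, and the within-genotype SD of the other tumors was 0.55. The list's median was -1.60, with 0 of 20 genes called and 17 lower on average. In every genotype 7 were below both other tumors, against 6.44% of all tested genes. With the muscle mean as a covariate, 6 genes were called, 3 of them among the 84. Of the 43 called genes named here, all 43 kept their sign with that covariate and 1, Coch, was still called (adjusted p = 0.0362). RNA integrity, as the log2 ratio of 3′ to 5′ control probe sets, was 0.14 to 0.40 in the low tumors and 0.18 to 0.36 in the others. With it as a covariate 116 genes were called.

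**Figure D1:**
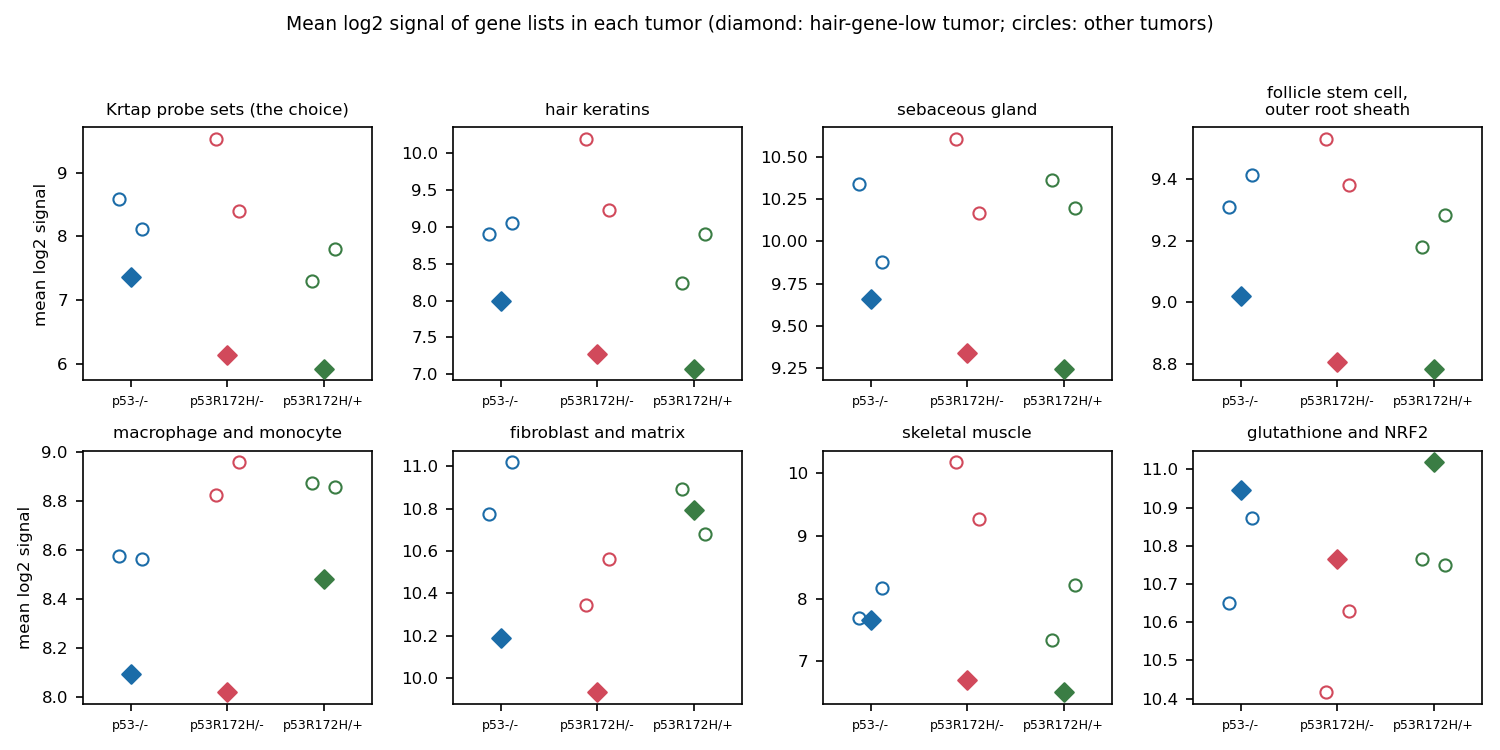
Mean log2 signal of 8 gene lists in each tumor, by genotype, with the hair-gene-low tumor as a filled diamond and the other 2 tumors as open circles. The diamond is lowest in each genotype for the Krtap probe sets (the choice), the hair keratins, and the sebaceous, stem cell, macrophage and skeletal muscle lists. For skeletal muscle the p53-/- diamond, at 7.66, is close to a circle at 7.69. The p53R172H/+ diamond lies between the circles for fibroblast genes.

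Some genes of sebaceous glands and follicle epithelium were lower together with the hair genes. Elovl3, a fatty acid elongase of sebaceous glands, had 147, 105 and 49.5 signal units in the low p53-/-, p53R172H/- and p53R172H/+ tumors, and 419, 820 and 1593 as the lowest, median and highest of the others. All 3 low tumors were below all 6 others, by 8.66-fold on average (log2 -3.11 ± 0.40 SE, adjusted p = 0.0161, limma), with 1 of the 3 under the floor of 52.6 to which low signals were raised. Scd1, the stearoyl-CoA desaturase of the gland, had 1253, 965 and 851 against 1936, 2855 and 4143 (-1.48 ± 0.20 SE, adjusted p = 0.0192). Its other probe set differed by -0.94. Far2, which reduces fatty acyl-CoA to alcohols for wax, had 236, 133 and 165 against 273, 441 and 593 without passing the threshold (adjusted p = 0.0927). Of 10 sebaceous genes tested, 2 were called lower and 0 higher, against 0.535% and 0.156% of all tested genes. In every genotype 5 were below both others, against 6.44% of all tested genes, and 9 were lower on average. The list's median was -0.50.

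Among genes of follicle stem cells and the outer root sheath, the homeobox gene Lhx2 had 56.5, 52.5 and 43.4 against 104, 144 and 268 (-1.50 ± 0.20 SE, adjusted p = 0.0161). The groups did not overlap, and 2 low tumors were at the floor. Krt79, a keratin of the follicle's upper duct, had 1164, 960 and 153 against 1268, 2787 and 5414 (-2.28 ± 0.35 SE, adjusted p = 0.0271), and was lowest in p53R172H/+ tumor 2. The quiescence factor Nfatc1 had 138, 132 and 125 against 170, 196 and 228 (-0.56, adjusted p = 0.0785). In that list 2 of 14 genes were called lower and 0 higher, against 0.535% and 0.156% of all tested genes, and the median was -0.33. Upstream regulators of the follicle did not go the same way: of 24 tested, 1 was called lower and 1 higher, with a median of 0.01. The lower one was Gata3, a transcription factor of the inner root sheath, at 299, 234 and 110 against 298, 473 and 550, where the groups overlapped between genotypes (-1.13 ± 0.14 SE, adjusted p = 0.0158). The higher one was Bambi, a decoy receptor of the TGF-beta family, at 532, 1460 and 863 against 180, 380 and 500 (1.40 ± 0.24 SE, adjusted p = 0.0431).

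Predicted genes beside Krtap genes may measure what chose the tumors, so they are given as a description with no p. Gm11559 had 91.1, 25.1 and 30.2 against 193, 536 and 1196 (-2.98), with 2 low tumors under the floor. Gm11567 had 88.5, 66.6 and 68.9 against 193, 419 and 902 (-2.47). In both, every low tumor was below every other tumor.

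The smallest adjusted p belonged to Coch, which encodes cochlin, a secreted matrix protein known from the inner ear. Its signal was 50.8, 45.8 and 40.5 in the low p53-/-, p53R172H/- and p53R172H/+ tumors and 222, 398 and 525 as the lowest, median and highest of the others. All 3 low values were under the floor, and with them raised to it the difference was 6.98-fold (log2 -2.80 ± 0.20 SE, adjusted p = 0.00307, limma). With no floor, on log2(signal + 16), the difference was -2.64 with an adjusted p of 0.00287. Coch was called without each of the 9 tumors in turn.

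Genes of stroma and matrix were among the lower calls. Cxcl12, a chemokine of stromal fibroblasts that binds CXCR4, had 173, 170 and 194 against 684, 1055 and 2080, so the low tumors lay close together and far below the others (-2.65 ± 0.25 SE, 6.27-fold, adjusted p = 0.00843). Its other 2 probe sets had differences of -0.15 and 0.03, so the probe sets disagreed. Decorin (Dcn), a small proteoglycan that binds collagen, had 919, 1207 and 1755 against 2951, 4278 and 6349 (-1.78 ± 0.19 SE, adjusted p = 0.0127). Another Dcn probe set differed by -0.33. Mfap5, a microfibril protein, had 112, 125 and 91.1 against 217, 513 and 729 (-2.12 ± 0.30 SE, adjusted p = 0.0207). Its other probe set differed by -0.86. Pdgfra, a receptor that marks fibroblasts, had 111, 146 and 348 against 310, 520 and 567 and overlapped (adjusted p = 0.102). Bgn, a proteoglycan related to decorin, had 2769, 2088 and 3432 against 2886, 3539 and 4227 (-0.39, adjusted p = 0.261). Over the 19 fibroblast and matrix genes, 2 were called lower and 0 higher, while 13 were lower and 6 higher on average. In every genotype 5 were below both others, and the median was -0.21. Over all tested genes, 0.535% were called lower and 6.44% were below both others in every genotype. The list mean differed by -0.70 in the p53-/- low tumor, by -0.52 in the p53R172H/- one and by 0.01 in the p53R172H/+ one. The matrix protease Mmp3, stromelysin-1, had 238, 445 and 776 against 984, 1337 and 1633 (-1.57 ± 0.24 SE, adjusted p = 0.0281). It was the 1 call among 15 protease and inhibitor genes, whose median was -0.14.

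**Figure D2:**
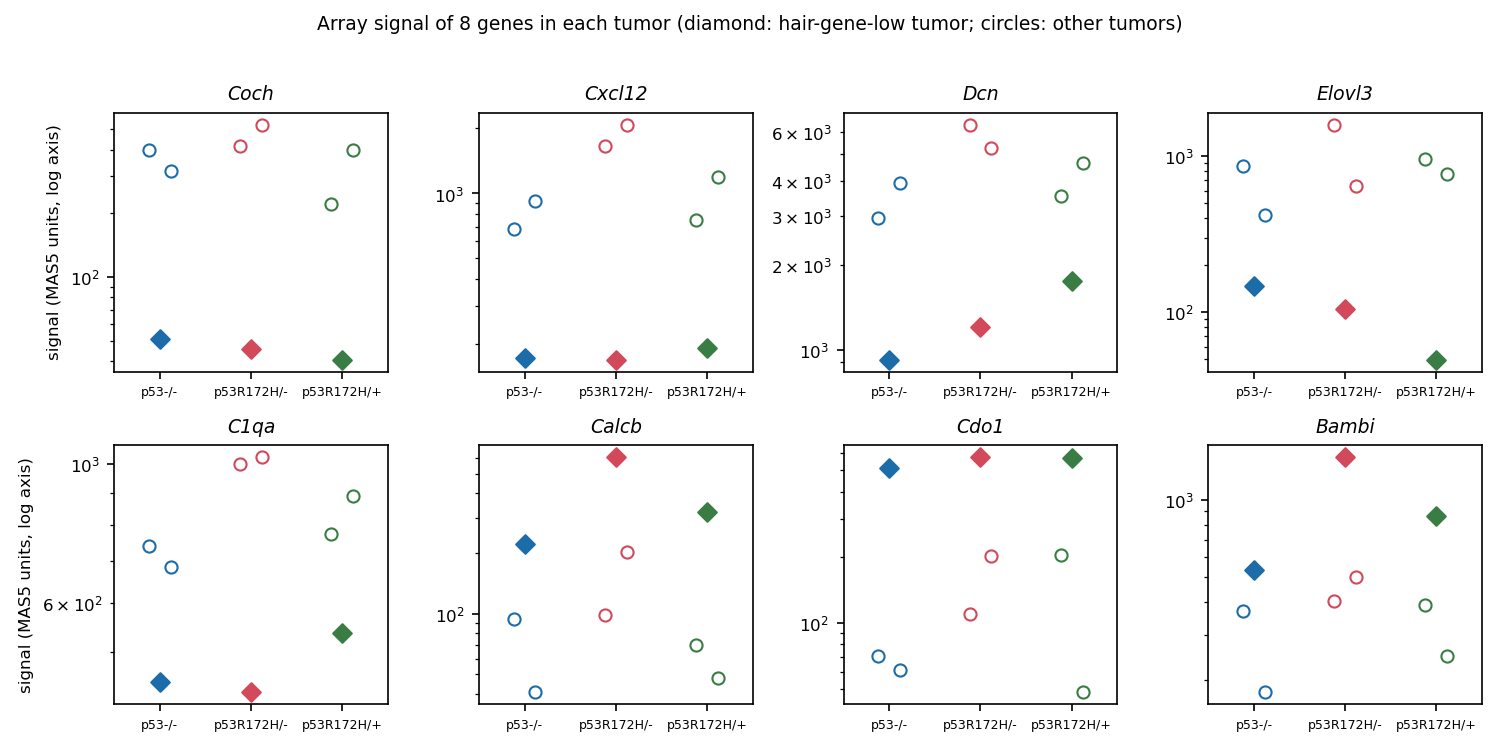
Signal in MAS5 units on a log axis for 8 genes in each tumor, with the hair-gene-low tumor as a filled diamond and the other 2 tumors of each genotype as open circles. Coch, Cxcl12, Dcn, Elovl3 and C1qa are lower and Calcb, Cdo1 and Bambi higher in all 3 diamonds than in any circle.

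Of 15 macrophage and monocyte genes, 3 were called lower in the hair-gene-low tumors. The complement subunit C1qa had 448, 432 and 536 against 684, 830 and 1026 (-0.84 ± 0.12 SE, adjusted p = 0.0236), and C1qc had 188, 224 and 369 against 399, 511 and 707 (-1.06 ± 0.18 SE, adjusted p = 0.0439). Ccr2, a chemokine receptor of monocytes, had 93.9, 141 and 133 against 206, 283 and 386 (-1.21 ± 0.20 SE, adjusted p = 0.0321), and its 3 other probe sets ranged from -0.44 to 0.21. The mannose receptor Mrc1 had 90.9, 75.3 and 111 against 197, 312 and 713 (-1.82, adjusted p = 0.0513). In that list 0 genes were called higher, 13 were lower on average and 9 were below both others in every genotype, with a median of -0.40. The shares over all tested genes were 0.535% called lower and 6.44% below both others. The list mean differed by -0.48, -0.87 and -0.39 in the p53-/-, p53R172H/- and p53R172H/+ low tumors, against a within-genotype SD of the other tumors of 0.05.

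Some genes of antigen-presenting and other blood cells were also lower. The class II chain H2-Ab1 had 1482, 1403 and 939 against 1486, 2079 and 2498 (-0.71 ± 0.12 SE, adjusted p = 0.0342), and it was the 1 of 8 dendritic and Langerhans cell genes called. In that list 7 genes were lower on average, 3 were below both others in every genotype, and the median was -0.26. Among all tested genes the shares were 0.535% called lower and 6.44% below both others. Cathepsin S (Ctss), a protease of antigen-presenting cells, had 698, 929 and 1009 against 1493, 1598 and 1862, with no overlap (-0.92 ± 0.12 SE, adjusted p = 0.0158). Arhgdib, abundant in blood cells, had 507, 480 and 475 against 755, 870 and 1137 (-0.89, adjusted p = 0.0158). In the neutrophil list 0 of 11 genes were called, and the median was -0.02. Of T and NK cell genes 0 of 6 were called, with a median of 0.01, and these few passed the filter of the 16 on the array.

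Further lower genes had epithelial or metabolic roles. The retinol dehydrogenase gene Rdh9 had 201, 195 and 103 against 293, 494 and 607 (-1.54 ± 0.13 SE, adjusted p = 0.0075). Galt, an enzyme of galactose breakdown, had 341, 282 and 269 against 474, 551 and 736 (-0.93 ± 0.09 SE, adjusted p = 0.00843), so a modest difference came with a narrow spread. The carboxypeptidase gene Cpm had 116, 90.4 and 83.6 against 153, 279 and 360 (-1.44, adjusted p = 0.0137), and its other probe set differed by -1.43. Atp12a, the catalytic subunit of a proton-potassium pump of epithelia, had 147, 204 and 56.3 against 168, 420 and 758 and overlapped between genotypes (-1.78, adjusted p = 0.0127). Scara3, a scavenger receptor family member, had 77.0, 77.5 and 82.4 against 163, 262 and 369 (-1.68, adjusted p = 0.0158). Tent5a, a poly(A) polymerase, and Slco3a1, an organic anion transporter, differed by -0.83 and -0.86 (adjusted p = 0.0158 each). Slco3a1 overlapped between genotypes, and its 2 other probe sets differed by -0.33 and -0.24.

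**Figure D3:**
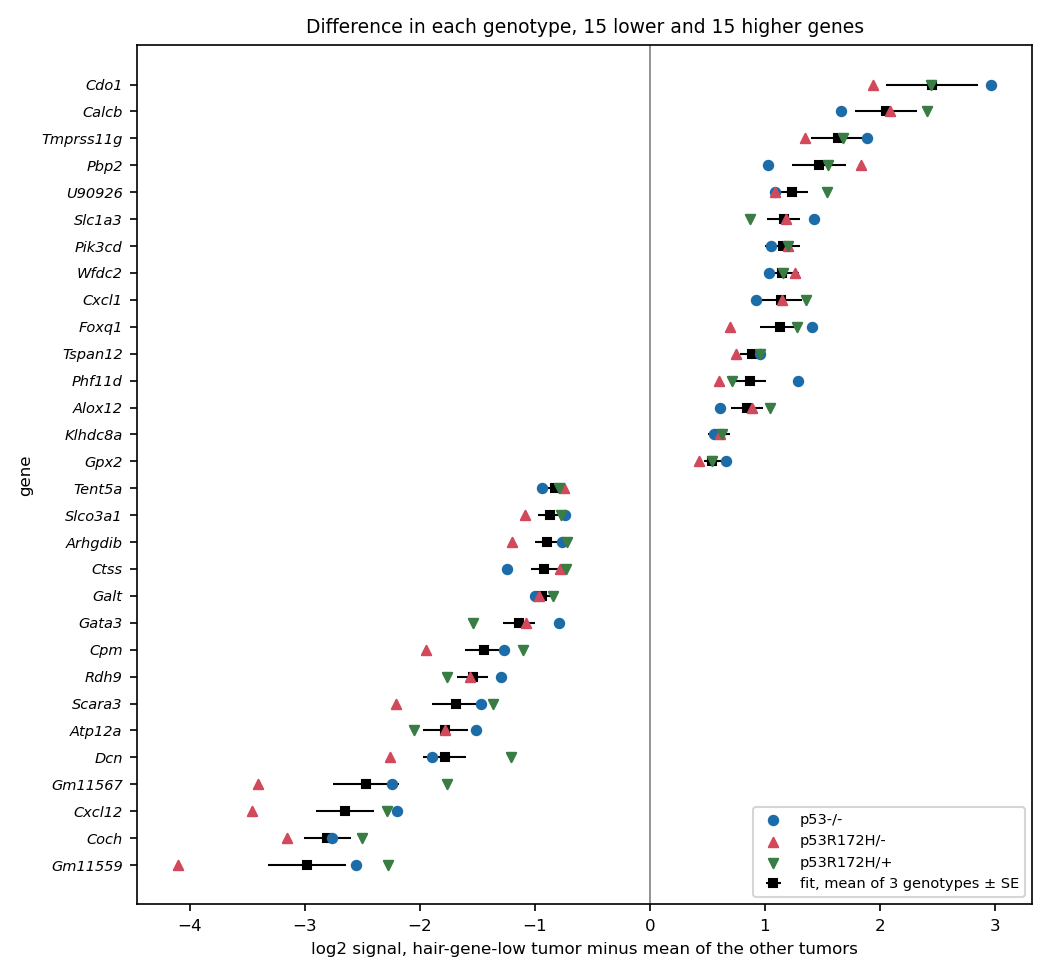
Log2 difference of the hair-gene-low tumor from the mean of its genotype's other tumors (coloured symbols, 1 per genotype) and the fitted mean with its SE (black squares), for the 15 lower and 15 higher genes with the smallest p. All 3 genotypes lie on the same side of 0 for each gene, as the choice of these genes required, and Gm11559 ranges from -4.10 to -2.27.

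Of the 19 higher genes, 12 differed by more than 2-fold, as did 48 of the 65 lower ones. Cdo1, the dioxygenase that begins cysteine breakdown, had 515, 576 and 568 in the low p53-/-, p53R172H/- and p53R172H/+ tumors, and 48.3, 90.6 and 206 as the lowest, median and highest of the others. The low tumors were close to each other and all above the others (2.45 ± 0.40 SE, 5.48-fold, adjusted p = 0.0321). Calcb, a calcitonin gene-related peptide, had 224, 605 and 321 against 40.8, 82.1 and 204 (2.05 ± 0.27 SE, 4.16-fold, adjusted p = 0.0161). U90926 had 533, 764 and 905 against 239, 300 and 422 (1.24 ± 0.13 SE, adjusted p = 0.0127) and was the 1 higher gene named here that was called without each tumor in turn.

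Secreted, membrane-bound and lipid-oxidising proteins were among the other higher genes. Tmprss11g, a transmembrane serine protease gene, had 564, 904 and 843 against 99.1, 263 and 403 (1.64 ± 0.24 SE, adjusted p = 0.0236). Wfdc2, a secreted protein with protease inhibitor domains, had 502, 798 and 657 against 190, 313 and 352 (1.15 ± 0.15 SE, adjusted p = 0.0161). The lipoxygenase gene Alox12 had 1255, 1531 and 1637 against 641, 823 and 986 (0.85 ± 0.14 SE, adjusted p = 0.0339), and its other probe set differed by 0.41. The forkhead gene Foxq1 had 542, 344 and 382 against 142, 182 and 244 (1.13 ± 0.17 SE, adjusted p = 0.0258), and its other probe set differed by 0.71. In each of the 4 the low tumors were above the others, as in 1.22% of all tested genes.

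Gpx2, a glutathione peroxidase of epithelia, had 5876, 5195 and 7029 against 3431, 4035 and 4870 (0.54 ± 0.07 SE, adjusted p = 0.0192). Of 14 glutathione and NRF2 target genes, 1 was called higher and 0 lower, 12 were higher on average and 6 were above both others in every genotype. Of all tested genes, 0.156% were called higher and 3.90% were above both others in this way. The list's median was 0.21. Gclc, the catalytic subunit for glutathione synthesis, had 1930, 1324 and 2213 against 1030, 1283 and 1497 (0.51, adjusted p = 0.241).

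Signalling and transport genes made up other calls. Slc1a3, a glutamate and aspartate transporter, had 304, 287 and 233 against 108, 116 and 146 (1.16 ± 0.14 SE, adjusted p = 0.0158), and its 5 other probe sets ranged from 0.11 to 0.55. Pik3cd, the catalytic p110 delta subunit of PI3-kinase, had 784, 1075 and 1007 against 322, 420 and 569 (1.16, adjusted p = 0.0161). Its 5 other probe sets ranged from -0.07 to 0.19, so the call rests on 1 probe set. The neutrophil chemokine Cxcl1 had 537, 1485 and 1300 against 218, 511 and 770 (1.14 ± 0.18 SE, adjusted p = 0.0292), with overlap between genotypes, and its 2 other probe sets differed by 1.01 and 1.03. The tetraspanin gene Tspan12 had 346, 543 and 613 against 166, 296 and 356 and overlapped by its p53-/- value (0.89, adjusted p = 0.0137). Pbp2, Phf11d and Klhdc8a differed by 1.47, 0.87 and 0.60 (adjusted p = 0.0292, 0.0321 and 0.0289), and Phf11d lost its call whichever tumor was left out. Another Klhdc8a probe set differed by 0.15.

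Lists of ERK output and immediate-early genes gave few calls. Of 17 ERK feedback and output genes, 0 were called, 13 were higher on average and 4 were above both others in every genotype, with a median of 0.14. Over all tested genes, 3.90% were above both others in this way. The receptor gene Epha2 had 474, 753 and 566 against 271, 321 and 452 (0.77, adjusted p = 0.0513). Among 16 immediate-early genes, 2 transcription factor genes were called lower, against 0.535% of all tested genes. Egr2 had 206, 423 and 158 against 339, 520 and 1205 (-1.27 ± 0.17 SE, adjusted p = 0.0161), with overlap between genotypes, and Egr3 had 915, 713 and 637 against 1093, 1127 and 1245 (-0.63 ± 0.10 SE, adjusted p = 0.0292). Another Egr3 probe set differed by 0.08. The list's median was 0.00.

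The lists of squamous epithelium held no called gene, and at the 0.692% called over all tested genes few would be due. Of 15 basal epithelium genes 0 were called, with a median of 0.05. Of 12 suprabasal keratins 0 were called, 3 were below and 0 above both others in every genotype, and the median was -0.02. Their list mean differed by 0.148, -1.155 and -0.14 in the p53-/-, p53R172H/- and p53R172H/+ low tumors. Of 24 cornified envelope genes 0 were called, 7 were below and 3 above both others in every genotype, and the median was -0.05. Over all tested genes 6.44% were below and 3.90% above in this way. The kallikrein gene Klk5, a protease of shedding epidermis, had 1261, 1008 and 787 against 1430, 2062 and 3130 (-1.06, adjusted p = 0.0772). Krt2, a keratin of upper epidermis, had 21.5, 25.3 and 22.8 against 70.9, 170 and 895, with all 3 low values under the floor (adjusted p = 0.159). Of 28 mitosis genes 0 were called, with a median of -0.06. In all, 23 of the lists held no called gene.

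**Figure D4:**
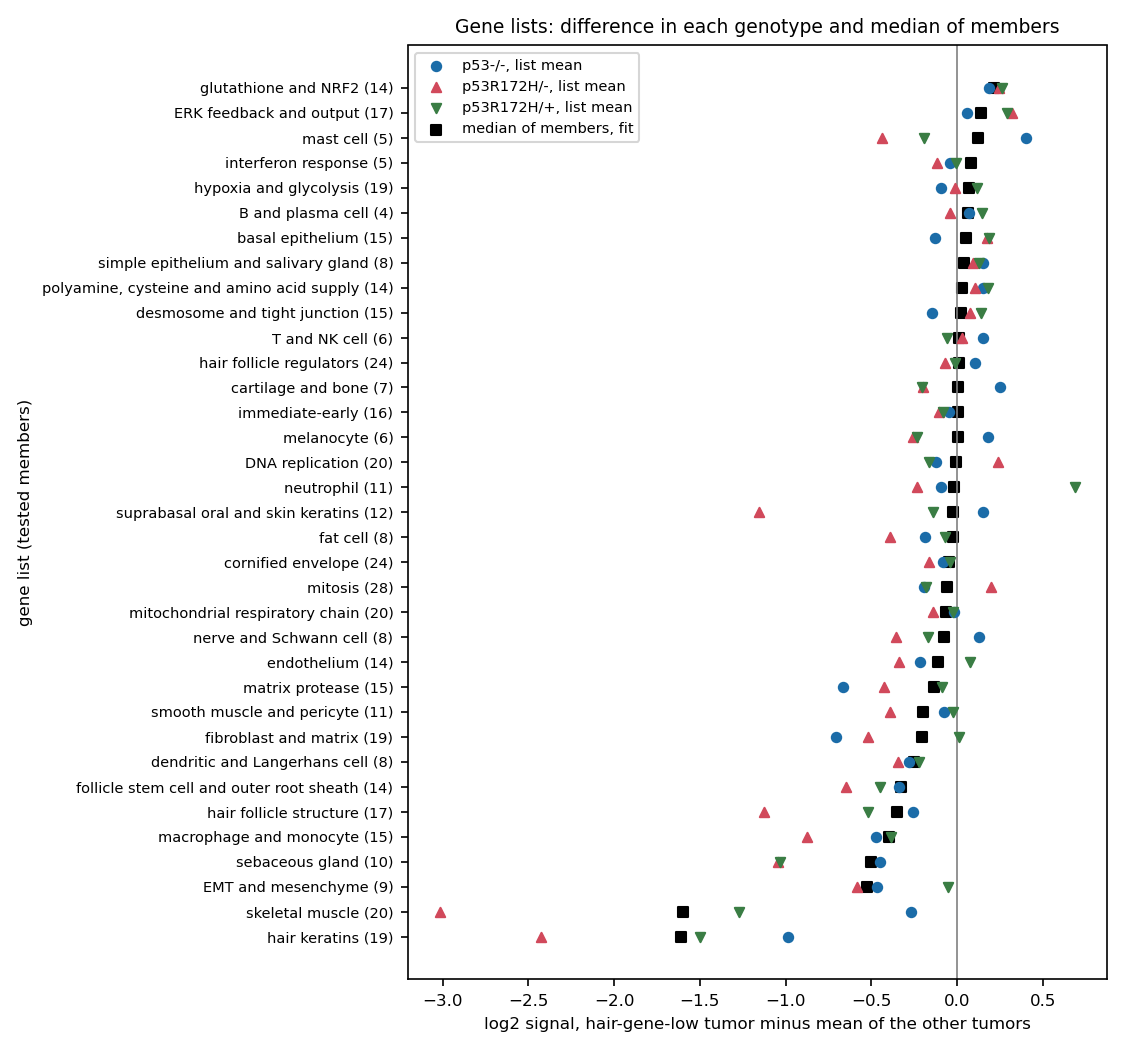
For each gene list (tested members in brackets), the log2 difference of the list mean in each genotype (coloured symbols) and the median of its members' fitted differences (black squares). Hair keratins (median -1.61) and skeletal muscle (-1.60) stand far to the left with a wide range over genotypes, and most lists lie near 0.

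Over all tested genes, the gap between the hair-gene-low tumor and the others took a median of 59.1% of the sum of squares within genotypes (quartiles 38.0% and 78.0%), with 3 of its 6 degrees of freedom. The gap was squared in each genotype whatever its direction, so this is not the share of the fitted difference. Lama3, at -0.535, 0.918 and 0.694 in p53-/-, p53R172H/- and p53R172H/+ tumors, had a share of 97.8%. For the called genes, picked for that gap, the median was 94.3%. The root mean square log2 difference over all tested genes was 0.40 from the low p53-/- tumor to each of the others and 0.28 between those. In p53R172H/- tumors it was 0.53 and 0.43 against 0.29. In p53R172H/+ tumors it was 0.29 and 0.41 against 0.34, so there the low tumor was nearer to tumor 1 than tumors 1 and 3 were to each other.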

How the data were processed

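Column-purified total RNA of each tumor gave biotinylated cRNA for 1 array, per the labels' protocols. The deposited values are signal intensities, 1 per probe set and array, which the authors made with MAS5 per the submitters' processing notes. Its version and scaling were not given in the sources used here. Arrays carry no read depth, and their number limits the precision.

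Of 45101 probe sets, 64 were controls, and only the 34945 that the platform annotation pairs with 1 symbol were used (932 have several and 9160 none). A floor at the 20th percentile of all signals (52.6) was set before taking log2. Fold changes are on this floored scale. Each gene took its brightest probe set, and genes with a mean below the median of non-control probe sets (115) were left out. The 38 Krtap genes with 1 symbol, of which 34 passed, were kept out of the tests.

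The model had genotype as a block and the hair-gene-low class, fitted to all 9 arrays in limma 3.58.1 under R 4.3.3 (lmFit, then eBayes with trend). Adjusted p is Benjamini-Hochberg over 12143 genes from two-sided tests, and called means under 0.05. Each difference is the hair-gene-low tumors minus the others. The fit was tested on simulated data with independent noise and fixed groups, which did not mimic choosing the tumors by their Krtap signal. The tumors, the 36 gene lists and the rules were chosen with earlier results of these data known, and nothing here is independent support. The text names the 15 genes with the smallest p in each direction, up to 4 members of each list with the smallest p, and the brightest hair genes. Hair list genes entered the fit and its counts of calls, but no p is printed for them, because they measure what chose the tumors. The predicted genes beside Krtap genes may measure the same, and no p is printed for them either. The same-numbered tumors of different genotypes were not treated as paired. The gene the genotypes alter is not reported here. Promoter sequences are RefSeq's, and were found by symbol for 9767 of the tested genes. Other normalizations, floors, filters, covariates and blocks were tried.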

Additional observations from a re-analysis of the deposited data

Results flagged for a closer look

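Among the 6 tumors not low in hair genes, p53-/- tumor 3 stood apart in Wfdc2, at 7.57 on the log2 scale against 8.13 to 8.46 in the other 5. About 1 in 20 groups is singled out this way by chance.

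In 2 gene lists the hair-gene-low tumor differed from its genotype's others in opposite directions by more than their spread and by at least 0.2. The cartilage and bone list mean was 0.25 higher in p53-/- tumors and differed by -0.20 in p53R172H/- and -0.21 in p53R172H/+ tumors. The mast cell list mean was 0.40 higher in p53-/- and differed by -0.44 in p53R172H/- tumors. These differences between genotypes were not tested.

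For 1 gene, Cap1, which encodes an actin-binding protein, the difference between the hair-gene-low tumor and the others itself differed between genotypes (adjusted p = 0.00148, limma interaction term, with 1287 genes at an unadjusted p under 0.05). Its log2 difference was -3.29 in p53-/-, 3.12 in p53R172H/- and 0.28 in p53R172H/+ tumors. The signal was 1451, 150 and 1481 in p53-/- tumors 1, 2 and 3, and 1869, 209 and 221 in the p53R172H/- tumors. It was 263, 277 and 198 in the p53R172H/+ tumors, so 3 of the 9 tumors were high.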

How the results depend on the processing

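Counts of called genes depended on the processing, and the cause was not tested. Against 84 genes (65 lower, 19 higher), 1 higher and 0 lower were called with no filter on low genes, where more genes were tested, and that 1 was not among the 84. With no genotype block 40 were called (32 lower, 8 higher), and with the muscle mean as a covariate 6 (3 lower, 3 higher). With the Krtap mean as a continuous covariate 197 were called (159 lower, 38 higher), of which 51 were shared with the 84. The mean of all probe sets of a gene gave 12 higher genes. Without 1 tumor at a time, 16 to 108 genes were called (9 to 86 lower, 3 to 22 higher), and the Krtap difference was -2.23 to -1.31. With the tumor number as a replicate block 219 were called (187 lower, 32 higher), 68 shared. The deviations of same-numbered tumors from their group means correlated between -0.44 and 0.21, the highest for a pair of low tumors. Such deviations include the gap between low and other tumors, so they cannot show whether the numbers pair the tumors. The 43 named called genes kept their direction under all 26 alternatives that gave them a value. For the 9 fits without 1 tumor this was fixed in advance. Each of these genes had the low tumor on 1 side of both others in every genotype. The choice by hair keratins took the same 3 tumors, so the direction could not change there either. Of the 43, 9 were called without each tumor in turn, among them Gm11559 and Gm11567, which lie beside Krtap genes. Other normalizations, floors and variance models left the count of calls within 1.5 times. Of 903 list medians under the alternatives 82 moved by more than the spread between tumors, 17 of them with the muscle covariate. With 3 low tumors, small differences cannot be told from spread, and differences of genes near the floor are understated.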

Other observations

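Outside the rule for named genes, and chosen after their values were seen, further called genes have known roles in stroma, monocytes and surface epithelium. Igfbp5, a binding protein of insulin-like growth factors, had 117, 117 and 140 signal units in the low p53-/-, p53R172H/- and p53R172H/+ tumors and 231 or more in every other tumor (log2 -2.23 ± 0.37 SE, adjusted p = 0.0342, limma). Its relative Igfbp4 differed by -1.71 (adjusted p = 0.0268). Pi16, a marker of some fibroblasts, had 110, 114 and 105 and reached 1281 in p53R172H/- tumor 2 (-2.44, adjusted p = 0.048). The matrix genes Prelp, Thbs4 and Prg4 differed by -1.32, -1.44 and -1.69 (adjusted p = 0.0161, 0.0281 and 0.0206). Ms4a6b and Ms4a6d, membrane proteins of myeloid and other immune cells, differed by -0.92 and -1.18 (adjusted p = 0.026 and 0.0342).

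Gprc5a, an orphan receptor of epithelia, was higher at 138, 382 and 249, with p53R172H/- tumor 3 at 171 above the low p53-/- tumor (1.19 ± 0.20 SE, adjusted p = 0.0342). Ifi202b and Usf1 differed by 0.63 and 0.60 (adjusted p = 0.048 and 0.0462). The iron-binding protein gene Ltf, of neutrophils and glands, was not called (adjusted p = 0.352), with 393, 1251 and 2860 in the low tumors, 2353 in p53R172H/- tumor 3 and 47.4 to 128 in the other 5.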
